A study of Mus musculus with 2 samples.

Results

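The 10 genes described here are 5 ligands of the transforming growth factor beta (TGF-beta) and bone morphogenetic protein (BMP) families, Tgfb1, Tgfb2, Tgfb3, Bmp4 and Bmp10, and 5 of their receptors, Tgfbr1, Tgfbr2, Tgfbr3, Bmpr1a and Bmpr2. They were chosen by symbol, and all 10 were found among the 55536 genes of the gene table. The study sequenced total RNA from heart tissue of 2 female B6CASTF1/J mice, an F1 hybrid of C57BL/6 and CAST parents, at the age of 2 months. Each animal gave 1 library from 300 ng of RNA, made after ribosomal RNA reduction and with ERCC spike-ins, synthetic transcripts of known amount. The labels give 1 group (n = 2), with no treatment and no transgene, and number the samples as separate biological replicates. Both samples carry the same donor identifier in the labels but separate sample descriptions, and they are taken here as 2 animals. If they were not, every SD and ratio between animals would describe 2 samples of 1 source. With a single group, the data show how high each ligand and receptor stood, which of its transcripts carried the signal, and how far the 2 animals differed.

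TGF-beta ligands are secreted in a latent form held by their own propeptide and stored in the matrix. Once released, they bring together a type II receptor (TGFBR2) and a type I receptor (TGFBR1), which passes the signal to SMAD2 and SMAD3. BMP ligands use BMPR2 with type I receptors such as BMPR1A or ACVRL1 and signal through SMAD1, SMAD5 and SMAD9, and both branches share SMAD4. In the heart the TGF-beta branch is known for fibroblast activation and matrix production. BMP signals are known for valve and chamber development, and Bmp10 for its expression in atrial cardiomyocytes.

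Gene reads were 41862417 in animal 1 and 41790009 in animal 2. Levels are TPM, a relative abundance of transcripts corrected for length, so that genes can be set beside each other. A second quantification of the same reads was deposited and is given where it differs. Heart identity of the samples was checked by marker genes: the cardiomyocyte gene Myh6 stood at 7602 and 8371 TPM, all 6 cardiomyocyte markers were at 1 TPM or more in both animals, and the 4 lung epithelium markers summed to 0.24 and 0.37 TPM. The 3 liver markers summed to 0.81 and 0.58 TPM.

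The ligands covered a wide range, with Bmp10 at the top and Tgfb2 at the bottom, and the receptors stood above the ligands as a group. Summed TPM was 40.23 in animal 1 and 44.47 in animal 2 for the 5 ligands, and 69.43 and 82.12 for the 5 receptors. The receptor sum was thus 1.73 and 1.85 times the ligand sum. All 10 genes were above 1 TPM in both animals. Among protein-coding genes ranked by mean TPM, of which 11023 reached 1 TPM in both animals, they lay between rank 2390 (Bmpr1a) and rank 10278 (Tgfb2).

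**Figure D1:**
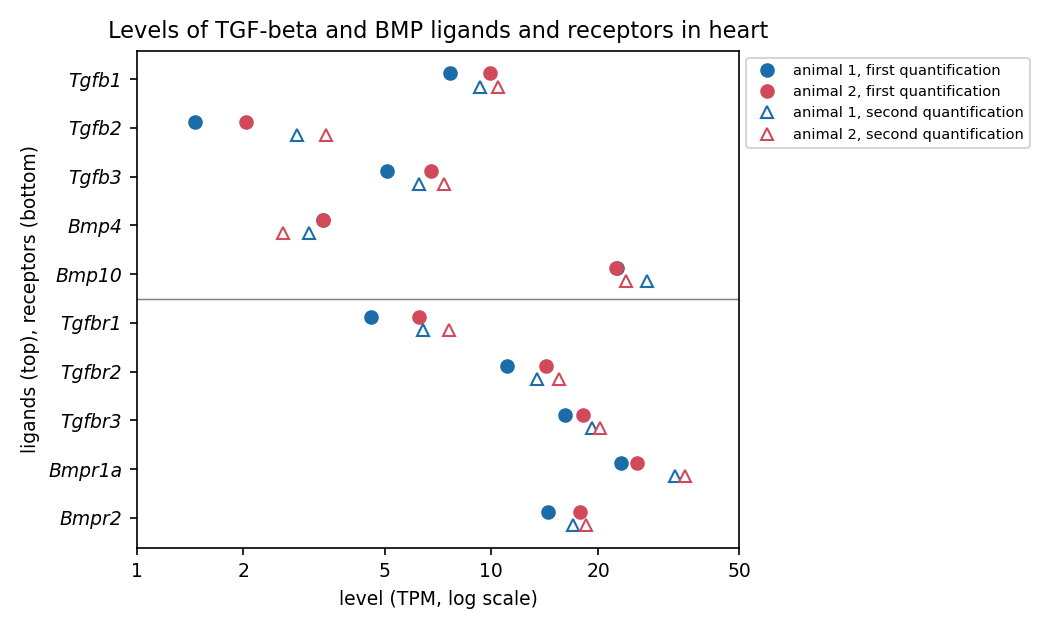
Level of each gene in TPM (log scale) in animal 1 (blue) and animal 2 (red), with filled circles for the first and open triangles for the second quantification; ligands are above the line and receptors below it. Bmpr1a and Bmp10 stand highest and Tgfb2 and Bmp4 lowest, and both quantifications keep the same 6 genes at the top.

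In order of mean level the genes ran Bmpr1a, Bmp10, Tgfbr3, Bmpr2, Tgfbr2, Tgfb1, Tgfb3, Tgfbr1, Bmp4 and Tgfb2. The ranges of the 2 animals overlapped between neighbours for Tgfbr3 and Bmpr2 and for Tgfb3 and Tgfbr1, although within each animal Tgfbr3 exceeded Bmpr2 and Tgfb3 exceeded Tgfbr1. In the second quantification Tgfbr1 stood above Tgfb3 and Tgfb2 above Bmp4, each pair with overlapping ranges. The positions of the first 6 genes were the same in both quantifications. Mean levels in the second quantification were between 0.841 (Bmp4) and 1.79 (Tgfb2) times those of the first, with Bmpr1a at 1.39 and Bmp10 at 1.14, and 9 of the 10 genes were higher there. This was not particular to the 10: other pathway genes such as Smad4 (1.28) and Eng (1.16) were also higher there, and some, such as Rgma (0.915), were lower.

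Tgfb1 (ENSMUSG00000002603.15, mm10 chr7:25687002-25705077, + strand) encodes the most widely expressed TGF-beta, a product of immune, endothelial and stromal cells. It had 580 reads and 7.66 TPM in animal 1 and 675 reads and 9.89 TPM in animal 2, a mean of 8.775 ± 1.58 TPM (SD, n = 2). Tgfb3 (ENSMUSG00000021253.7, chr12:86056745-86079041, - strand), an isoform known from palate and lung development, had 618 and 743 reads and 5.07 and 6.78 TPM (mean 5.925 ± 1.21). Tgfb2 (ENSMUSG00000039239.14, chr1:186622792-186705989, - strand), needed for valve and outflow tract development, had 244 and 282 reads and 1.46 and 2.03 TPM (mean 1.745 ± 0.403). All 3 TGF-beta ligands were thus higher in TPM in animal 2, as was the median gene tested (by 0.22 on the log2 scale). By scaled reads, given below, none of the 3 passed the test between the animals. The order of the 3 ligands was the same in both animals.

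Their proportions varied less than their levels, because a rise in TPM shared by the ligands cancels in a share. Tgfb1 made up 53.4 ± 0.774% of the TGF-beta ligand TPM (SD, n = 2), Tgfb3 36.0 ± 0.373% and Tgfb2 10.6 ± 0.401%. In the second quantification the shares were 49.8%, 34.4% and 15.8%, so that the share of Tgfb2 depended most on the quantification: its mean level there was 1.79 times that of the first.

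The 2 quantifications also divided Tgfb2 differently among its 6 annotated transcripts. Tgfb2-201, the leading protein-coding transcript, held 82.2% and 77.3% of the gene's TPM in the first quantification and 43.7% and 42.02% in the second. Tgfb2-205, a retained-intron transcript, held 0% in both animals in the first and 27.9% and 21.1% in the second. The short non-coding Tgfb2-202 and Tgfb2-204 held at most 14.4% and 10.3% in any animal and quantification. A second protein-coding transcript, Tgfb2-206, carries an extra exon within the propeptide-coding part, with 84 coding bases more than Tgfb2-201 (1326 against 1242). It held 9.59% and 6.40% of TPM in the first quantification, from 17.66 and 14.39 estimated reads with an assignment spread of 12.74 and 10.68 reads, and 18.4% and 13.1% in the second. The assignment spread is the posterior standard deviation of reads assigned within 1 library, and here it was close to the estimate itself. The extra exon (mm10 chr1:186690721-186690804, - strand) is printed because it is the only coding difference between the 2 forms. Its bases are in capitals between 15 coding bases of each neighbouring exon, in the mm10 reference sequence.
Tgfb2 extra exon: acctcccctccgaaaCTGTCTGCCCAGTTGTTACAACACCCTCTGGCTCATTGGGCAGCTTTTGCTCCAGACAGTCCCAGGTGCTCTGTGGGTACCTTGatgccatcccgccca

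Bmp10 (ENSMUSG00000030046.6, chr6:87428994-87437677, + strand) was the highest ligand, with 3695 reads and 22.68 TPM in animal 1 and 3282 reads and 22.41 TPM in animal 2 (mean 22.5 ± 0.191). Bmp4 (ENSMUSG00000021835.15, chr14:46383520-46390669, - strand), a ligand of early cardiac and outflow tract development, had 123 and 102 reads and 3.36 TPM in each animal. Bmp10 thus stood 6.75 and 6.67 times above Bmp4, and 8.96 and 9.24 times in the second quantification. It alone accounted for 56.4% of the summed TPM of the 5 ligands in animal 1 and 50.4% in animal 2, and for 56.1% and 50.2% in the second quantification.

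The Bmp4 level rests on few reads and on short transcripts. Bmp4-204, a retained-intron transcript of 258 bases, received 7 and 7.44 reads, which the length correction turned into 35.4% and 41.7% of the gene's TPM, and it had none in the second quantification. Bmp4-202, protein-coding, held 59.2% and 53.9% of TPM and 49.8% and 63.9% in the second. Bmp4-201, which shares all 1224 coding bases with Bmp4-202 and differs only outside the coding sequence, was given 0 reads in the first quantification and 34.3% and 19.4% of TPM in the second. The retained-intron transcript Bmp4-203 held 5.36% and 4.46% in the first and 15.8% and 16.7% in the second. Over transcripts of at least 1000 bases alone, a choice made after the data were seen, mean Bmp4 was 1.90 TPM in place of 3.36.

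Bmp10 has 1 annotated transcript, of 4490 bases, so its level does not depend on read division between transcripts. The 250 bases before its RefSeq start (GRCm38.p6, the mm10 assembly, chr6:87428744-87428993, + strand) are printed beside those of Tgfbr1 (chr4:47352972-47353221, + strand) as windows with few and with many CG dinucleotides. Capitals mark each CG dinucleotide, which reads the same on both strands.
Bmp10 promoter: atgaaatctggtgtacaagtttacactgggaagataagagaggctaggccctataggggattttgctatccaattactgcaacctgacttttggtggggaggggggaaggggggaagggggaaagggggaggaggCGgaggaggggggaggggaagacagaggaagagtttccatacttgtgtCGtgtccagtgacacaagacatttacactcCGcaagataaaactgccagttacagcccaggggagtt
Tgfbr1 promoter: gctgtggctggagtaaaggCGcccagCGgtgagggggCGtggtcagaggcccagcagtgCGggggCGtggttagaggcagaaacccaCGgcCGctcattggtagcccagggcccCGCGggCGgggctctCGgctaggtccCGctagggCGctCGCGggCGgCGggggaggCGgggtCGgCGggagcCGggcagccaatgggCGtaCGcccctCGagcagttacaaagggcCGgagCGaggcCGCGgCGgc

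The Bmp10 window held 3 CG and the Tgfbr1 window 29. Over all 32851 RefSeq promoter windows of the same length the median was 6, 92.1% held at least 1 CG, 29.0% held fewer than the Bmp10 window and 93.2% fewer than the Tgfbr1 window. RefSeq windows matched 8 of the 10 genes. The windows of the other matched genes had 36 CG for Bmpr1a, 22 for Bmpr2, 21 for Tgfb1, 12 for Tgfbr2, 11 for Bmp4 and 8 for Tgfb2. The Bmp4 window lies before Bmp4-201, which is not the leading Bmp4 transcript. Those of Bmpr1a, Bmpr2 and Tgfbr2 match no transcript start of the GENCODE annotation. These counts describe the reference sequence and were not set against the levels by any test.

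Tgfbr1 (ENSMUSG00000007613.15, chr4:47353222-47414931, + strand) encodes the type I receptor that phosphorylates SMAD2 and SMAD3. It was the lowest of the 5 receptors, with 816 reads and 4.57 TPM in animal 1 and 940 reads and 6.25 TPM in animal 2 (mean 5.41 ± 1.19). Tgfbr2 (ENSMUSG00000032440.13, chr9:116084293-116175360, - strand), the type II receptor that binds the ligand, had 1933 and 2261 reads and 11.10 and 14.29 TPM (mean 12.7 ± 2.26). Tgfbr2 stood 2.43 and 2.29 times above Tgfbr1. The 2 signalling receptors together were 1.10 times the sum of the 3 TGF-beta ligands in each animal.

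Tgfbr3 (ENSMUSG00000029287.14, chr5:107106570-107289629, - strand) encodes betaglycan, a co-receptor without a kinase that presents TGF-beta 2 to TGFBR2 and also binds inhibin. It had 2970.22 and 3156.8 reads and 16.12 and 18.12 TPM (mean 17.1 ± 1.41), the highest of the TGF-beta receptors. Bmpr1a (ENSMUSG00000021796.15, chr14:34410734-34503341, - strand), the type I BMP receptor ALK3, had 3490 and 3597 reads and 23.21 and 25.68 TPM (mean 24.445 ± 1.75). Bmpr2 (ENSMUSG00000067336.6, chr1:59763400-59879014, + strand), the type II BMP receptor known from heritable pulmonary arterial hypertension, had 6810 and 7459 reads and 14.43 and 17.78 TPM (mean 16.1 ± 2.37). Bmpr2 had the most reads of the 10 genes but not the highest TPM, its leading transcript being 12899 bases long. Every receptor was higher in TPM in animal 2, but with TPM taken over nuclear protein-coding genes alone Tgfbr3 (42.03 and 40.2) and Bmpr1a (60.5 and 56.9) were higher in animal 1.

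Bmpr1a exceeded Bmpr2 by 1.61 and 1.44 times in the 2 animals, and by 1.93 and 1.91 times in the second quantification. Between quantifications the share of the 748-base transcript Bmpr1a-203 also differed, at 13.6% and 12.6% of the gene's TPM in the first and 29.4% and 33.6% in the second. In the first quantification that share rested on 76.15 and 70.03 of the gene's reads.

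**Figure D2:**
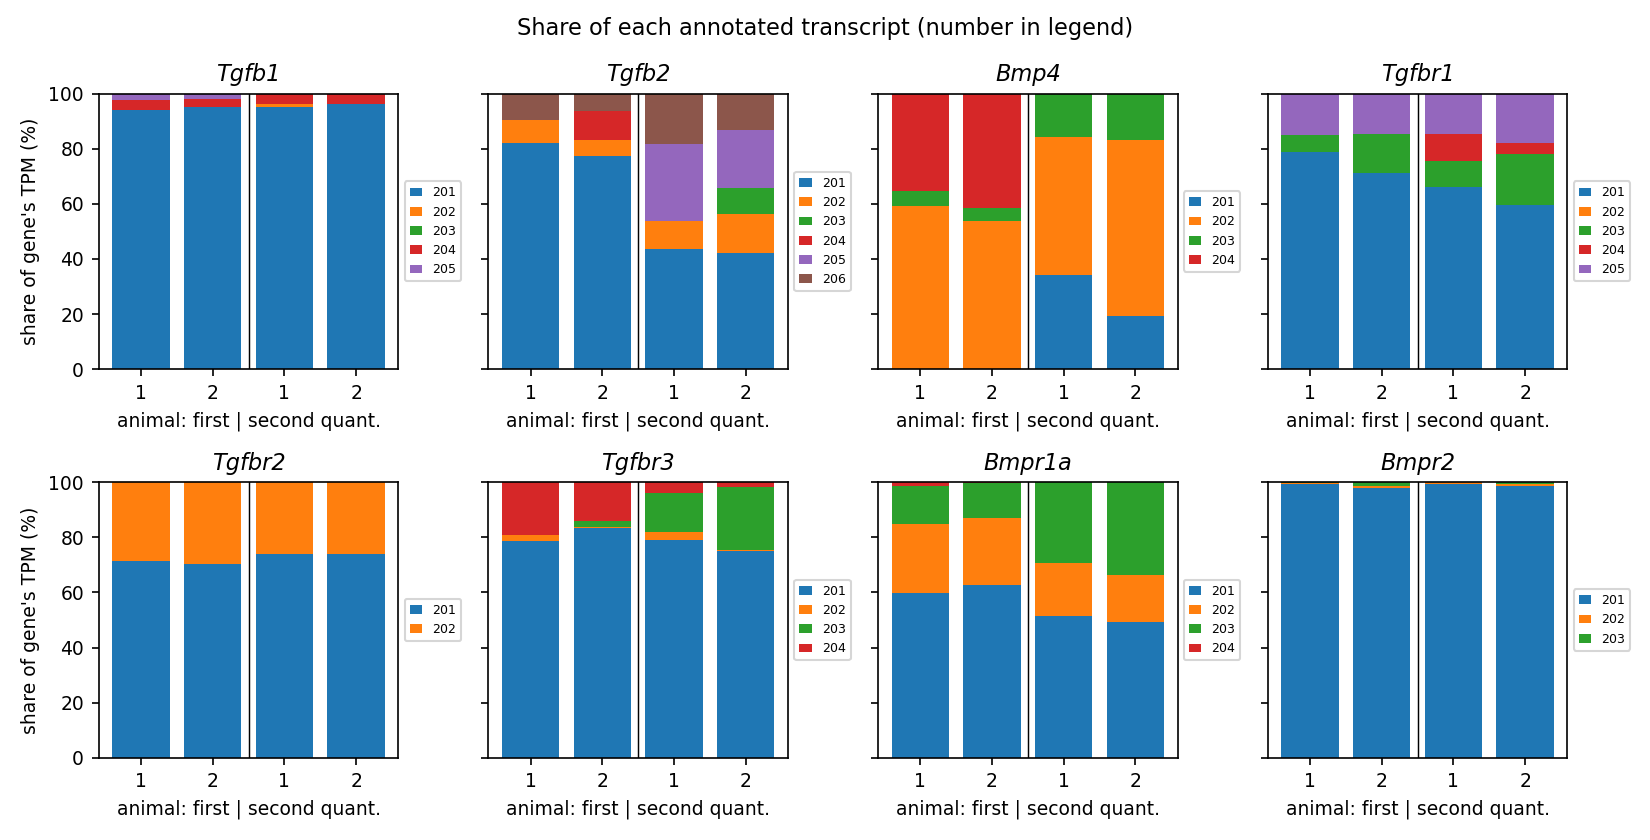
Share of each annotated transcript in its gene's TPM (%), stacked to 100, for the 8 genes with more than 1 transcript; in each panel the first 2 bars are animals 1 and 2 in the first quantification and the last 2 in the second. Bars of the same quantification resemble each other more than those of the same animal for Tgfb2 and Bmp4, while Tgfbr2 keeps about the same split in all 4.

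The 10 genes have 35 annotated transcripts, and the transcript with the largest mean share was the same in both quantifications for all 10. Tgfb1-201 held 94.1% and 95.2% of TPM and Bmpr2-201 99.2% and 97.9%. Tgfb3, like Bmp10, has a single transcript.

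Tgfbr2 was the clearest case of 2 protein-coding forms present together. Tgfbr2-201 held 71.5% and 70.4% of TPM and Tgfbr2-202 28.5% and 29.6%, with 73.9% and 74.0% for Tgfbr2-201 in the second quantification. By reads the 2 forms were close to equal, with 48.5% and 49.9% of reads given to Tgfbr2-202, whose annotated length is greater. Tgfbr2-202 has 1776 coding bases against 1701 and holds an extra exon of 75 bases in the part that encodes the region outside the cell. In all it has 4711 exonic bases that Tgfbr2-201 lacks, the 75 of this exon among them, so the split of reads does not measure the extra exon alone. That exon (mm10 chr9:116158271-116158345, - strand) is printed with its bases in capitals between 15 coding bases on each side.
Tgfbr2 extra exon: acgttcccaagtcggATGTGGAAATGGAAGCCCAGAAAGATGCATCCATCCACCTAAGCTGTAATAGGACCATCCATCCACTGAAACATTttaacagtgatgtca

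For Tgfbr1, Tgfbr1-201 led with 78.9% and 71.1% of TPM, and 65.96% and 59.5% in the second quantification. Tgfbr1-205 held 15.1% and 14.9%. Tgfbr1-203, which begins at a second RefSeq start whose upstream window holds 3 CG, held 5.92% in animal 1 and 14.1% in animal 2, from 16.44 and 47.21 reads with an assignment spread of 10.80 and 17.30. The second quantification gave it 9.68% and 18.6%, also higher in animal 2. No test was made of this difference between the animals. Tgfbr1-202, which differs from Tgfbr1-201 in coding sequence only by 12 bases fewer at the start of the third exon, was given 0 reads in the first quantification in both animals, with an assignment spread of 12.48 and 16.02 reads. The 12 bases (mm10 chr4:47393247-47393258, + strand) are printed in capitals, between 15 coding bases on each side, as the whole coding difference between Tgfbr1-201 and Tgfbr1-202.
Tgfbr1 longer exon: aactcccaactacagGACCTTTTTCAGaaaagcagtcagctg

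Tgfbr3-201 held 78.7% and 83.2% of TPM, and 78.8% and 74.9% in the second quantification. The non-coding transcripts of the gene differed more: the retained-intron transcript Tgfbr3-204 held 19.1% and 14.2% in the first and 3.88% and 1.74% in the second. Tgfbr3-203 held 0% and 2.04% in the first against 14.2% and 22.8% in the second. Bmpr1a-201 held 59.6% and 62.6% and Bmpr1a-202, also protein-coding, 25.2% and 24.3%, with 51.5% and 49.1% and 19.1% and 17.3% in the second quantification.

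The animals were compared on reads rather than TPM. Over the 16133 genes with at least 20 reads, TPM in animal 2 stood above that in animal 1 by a median of 0.22 on the log2 scale, and for reads scaled by TMM (trimmed mean of M values) the same median was -0.0024. Ratios below are of scaled reads, animal 2 over animal 1, with exact 95% intervals that cover counting error only. Each test compares 2 libraries, not conditions, and its p-values hold no spread between animals. Among the 4554 genes with the most reads, the log2 ratio had a robust SD of 0.078, a spread little affected by extreme genes. Differences of about that size were thus common among such genes, and no test below takes that spread into account. In these bulk samples fewer cells of a type and less RNA per cell cannot be told apart.

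With a minimum of 2-fold, 0 of the 10 genes passed the test, against 1.38% of all genes tested, 0.483% higher in animal 2 and 0.893% higher in animal 1. Without a fold minimum 2 of the 10 passed, against 11.3% of all genes: Bmp10, higher in animal 1 (the direction of 4.75% of all genes), and Tgfbr2, higher in animal 2 (the direction of 6.60%). These shares of all genes, here and below, are not matched for reads, and with more reads the test passes smaller differences. All 10 genes passed the filter on low counts. Their median log2 ratio was 0.09, with 7 above 0 and 3 below, and the median of all genes tested was close to 0.

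**Figure D3:**
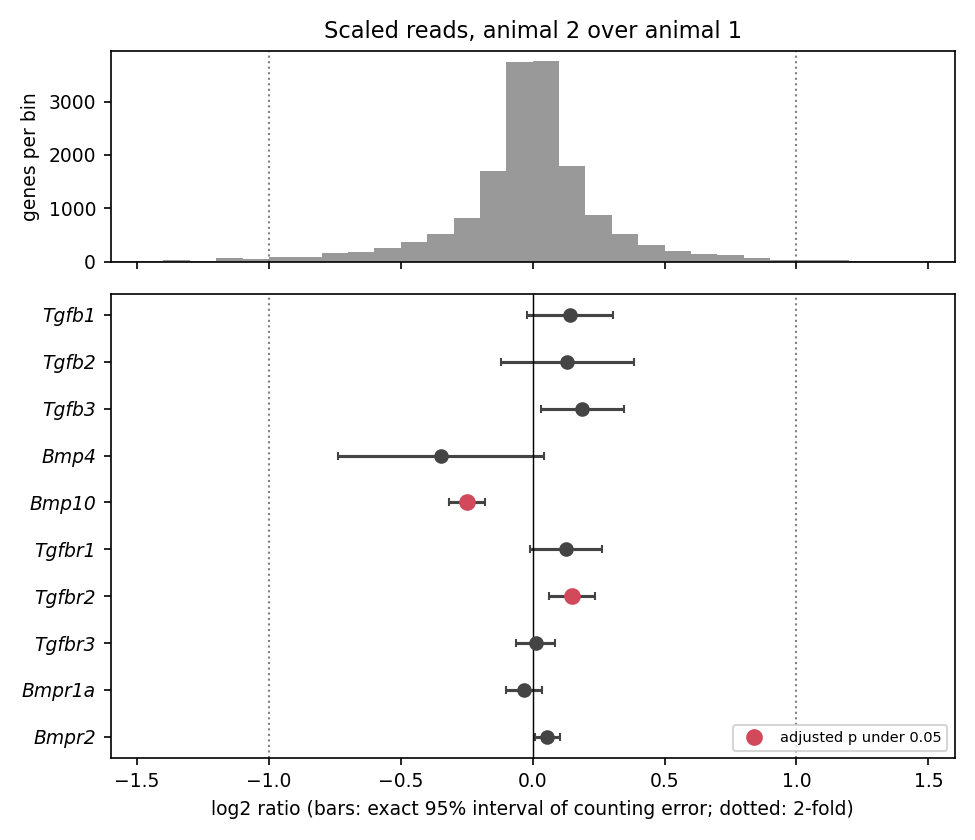
Top, histogram of the log2 ratio of scaled reads (animal 2 over animal 1) for all genes tested with values within the axis; bottom, the same ratio for each of the 10 genes, with exact 95% intervals of counting error as bars and dotted lines at 2-fold. Bmp10 and Tgfbr2 (red, adjusted p under 0.05) lie on opposite sides of 0, and no gene reaches 2-fold.

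Bmp10 was 15.8% lower in animal 2, at a ratio of 0.842 (95% interval 0.803 to 0.883, exact binomial test with Benjamini-Hochberg adjustment, adjusted p = 4.31e-11). Its TPM was nearly the same in both animals, 22.68 and 22.41, while the median gene was higher in TPM in animal 2, as given above. Tgfbr2 was 10.9% higher in animal 2, at a ratio of 1.11 (1.04 to 1.18, exact binomial test with Benjamini-Hochberg adjustment, adjusted p = 0.0109). The log2 ratios were 0.149 for Tgfbr2 and -0.248 for Bmp10, beside the robust SD of 0.078 given above for the genes with the most reads. Both passed under all 7 alternative settings, with Bmp10 between 0.842 and 0.890 and Tgfbr2 between 1.11 and 1.17.

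The other 8 genes did not pass. Tgfb3 had the ratio 1.14 (1.02 to 1.27, exact binomial test with Benjamini-Hochberg adjustment, adjusted p = 0.111), Tgfb1 1.10 (0.986 to 1.24) and Tgfb2 1.10 (0.920 to 1.31). Bmp4 had the lowest ratio, 0.787, but with a wide interval of 0.599 to 1.03 at 123 and 102 reads (exact binomial test with Benjamini-Hochberg adjustment, adjusted p = 0.311). Among receptors the ratios were 1.09 for Tgfbr1 (0.993 to 1.20), 1.01 for Tgfbr3 (0.958 to 1.06), 0.977 for Bmpr1a (0.932 to 1.02) and 1.04 for Bmpr2 (1.005 to 1.07). The intervals of Tgfbr3, Bmpr1a and Bmpr2 were the narrowest of the 8. With total gene reads as library size, every log2 ratio rose by 0.08, the ratio of Bmpr1a turned to 1.03, and Tgfb1, Tgfb3, Tgfbr1 and Bmpr2 passed as well, making 5 genes higher in animal 2 and 1 higher in animal 1. Bmpr2 also passed with library sizes from spike-in reads.

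Marker genes of atrial cardiomyocytes moved in the same direction as Bmp10. All 8 atrial markers, Nppa, Myl4, Myl7, Sln, Pam, Gja5, Dkk3 and Stard10, had lower scaled reads in animal 2 and passed the test without a fold minimum (8 of 8, against 4.75% of all genes in that direction). The marker lists were chosen with earlier results of these data known, so this count is not independent of them. The share of all genes is not matched for reads. Their summed level was 1458 TPM in animal 1 and 1298 in animal 2, all 8 were at 1 TPM or more in both, and their median log2 ratio was -0.41. The atrial hormone Nppa had a ratio of 0.735 and sarcolipin (Sln), a calcium pump regulator, 0.648, both lower than the 0.842 of Bmp10, while Pam stood at 0.887. All 8 also lay below 1 with total gene reads or spike-in reads as library size. Of the 6 general cardiomyocyte markers 1 lay above 1 and 5 below (6 and 0 with total gene reads). Among them 4 passed as lower in animal 2 and 1 as higher. Of the 4 ventricular markers 2 lay above 1 and 2 below (4 and 0 with total gene reads), and 1 passed, Myl3 at 0.975. The 3 endocardial markers lay below 1 (2 of 3 with total gene reads), with Npr3 at 0.788 the 1 that passed. The part of these cell types in the Bmp10 difference was not tested.

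**Figure D4:**
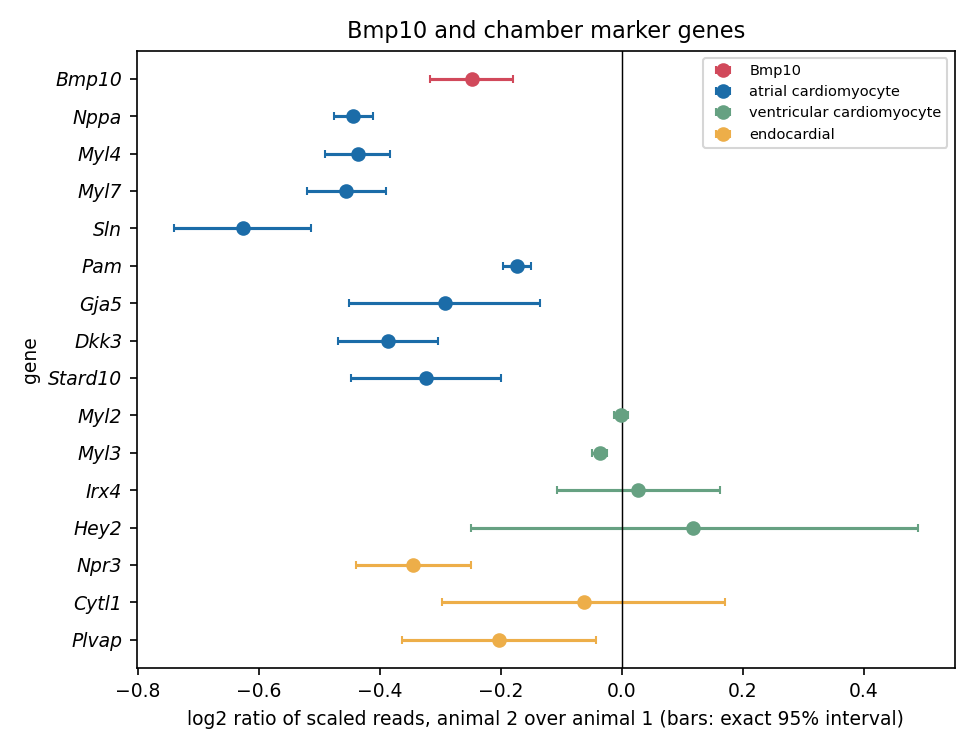
Log2 ratio of scaled reads, animal 2 over animal 1, for Bmp10 (red) and the marker genes of atrial cardiomyocytes (blue), ventricular cardiomyocytes (green) and endocardium (yellow), with exact 95% intervals of counting error as bars. Bmp10 and all 8 atrial markers lie below 0 with intervals that do not reach it, and the ventricular markers lie near 0.

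Beside Tgfbr2, markers of 4 vascular, stromal and immune lists were mostly higher in animal 2, and those of 3 other lists were not. Of 7 endothelial markers 6 had ratios above 1 and 5 passed as higher in animal 2 without a fold minimum (summed 186 and 240 TPM), a direction in which 6.60% of all genes passed. All 8 pericyte and smooth muscle markers were above 1 and 6 passed (286 and 382 TPM), as were 6 of 7 fibroblast markers with 4 passing (259 and 335 TPM). All 6 macrophage markers were above 1 and 2 passed (65.8 and 87.8 TPM). In the platelet list 1 marker was above 1 and 3 below, in the mesothelial list 2 and 2, and in the endocardial list 0 and 3, with none passing as higher in animal 2. No marker of these 7 lists was below 1 TPM in either animal. These lists, too, were chosen with earlier results of these data known, and their part in the Tgfbr2 difference was not tested.

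The rest of the pathway was described by 7 lists of 103 genes, of which 102 were found by symbol and 81 had enough reads to test. With the 2-fold minimum 2 of the 81 passed, Acvr1c and Fn1, both higher in animal 2, beside 1.38% of all genes. Without it 23 passed, beside 11.3% of all genes (not matched for reads). Of the 23, 21 were higher in animal 2 and 2 higher in animal 1 (Rgma and Itgb6). The median log2 ratio of the 81 was 0.08. With total gene reads as library size 37 passed, 36 higher in animal 2 and 1 higher in animal 1.

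**Figure D5:**
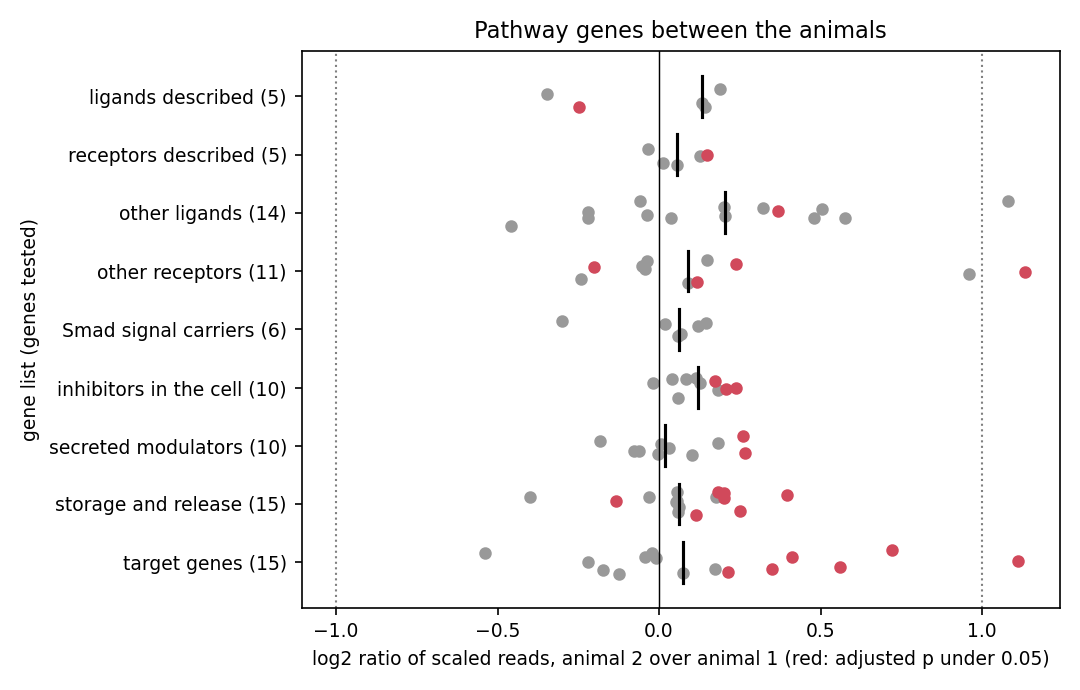
Log2 ratio of scaled reads, animal 2 over animal 1, for each gene tested of the 2 described groups and the 7 other pathway lists; each point is a gene, red points passed the test without a fold minimum, the black bar is the list's median and dotted lines mark 2-fold. Medians lie between 0.02 and 0.20, and Acvr1c and Fn1 are the red points beyond 2-fold.

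Of 28 other ligands, 4 had no read in either animal in the first quantification (Bmp8b, Inhbc, Inhbe and Lefty2), a count that allows up to 0.0717 and 0.0718 CPM. The second quantification also gave none to Inhbc and Lefty2, but it gave Inhbe 17.07 and 23.12 reads and Bmp8b 3.00 and 3.10. Another 10 had too few reads to test, and 2 reached 1 TPM in both animals. Bmp6, known as the endothelial signal for hepcidin in the liver, was the highest at 8.53 ± 2.25 TPM. It had 824 and 1123 reads, a ratio of 1.29 (1.18 to 1.42, exact binomial test with Benjamini-Hochberg adjustment, adjusted p = 7.26e-07), and was the 1 ligand of this list that passed. The next in level were the inhibin subunits Inha at 1.79 ± 0.156 TPM and Inhba at 1.03 ± 0.113 TPM, followed by Gdf11 at 0.915 ± 0.247 TPM. Every other ligand thus stood below the Bmp10 level, and the median log2 ratio of the 14 tested was 0.20.

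Among 13 other receptors and co-receptors 12 were found and 11 tested, 6 above 0 and 5 below (9 and 2 with total gene reads), with a median log2 ratio of 0.09. Endoglin (Eng), the endothelial co-receptor of BMP ligands, was the highest at 44.9 ± 6.54 TPM, above every one of the 10 genes described, and had a ratio of 1.09 (exact binomial test with Benjamini-Hochberg adjustment, adjusted p = 8.54e-04). Acvrl1 (ALK1), the endothelial type I receptor that binds BMP10, stood at 11.015 ± 2.76 TPM with a ratio of 1.18 (exact binomial test with Benjamini-Hochberg adjustment, adjusted p = 4.76e-03). Rgma, a BMP co-receptor, stood at 23.6 ± 0.672 TPM and was lower in animal 2, at 0.870 (exact binomial test with Benjamini-Hochberg adjustment, adjusted p = 7.08e-05). Its relative Rgmb had 8.905 ± 0.898 TPM and did not pass, but did under 2 of 7 alternative settings. Acvr1c (ALK7) passed the 2-fold rule from 17 and 40 reads, at 2.19 (1.24 to 4.197, exact binomial test with Benjamini-Hochberg adjustment, adjusted p = 0.0456), and lost the call without the filter on low counts (0.0679) and in the second quantification (0.0504).

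The 6 SMAD signal carriers gave no call in the main setting, and Smad5 passed under 1 of 7 alternative settings. Smad4, shared by both branches, was the highest at 25.1 ± 4.27 TPM, followed by Smad5 at 11.8 ± 1.80, Smad2 at 8.625 ± 0.530 and Smad1 at 5.05 ± 0.735. Their median log2 ratio was 0.06, with 5 above 0 and 1 below.

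Of 10 inhibitors that act inside the cell or at the receptor, 9 were above 0 and 3 passed, all higher in animal 2, with a list median of 0.12. Fkbp1a, which binds the TGF-beta type I receptor and also the ryanodine receptor, led at 84.9 ± 10.9 TPM. It did not pass, but did under 1 of 7 alternative settings. The 3 that passed were Ski, a SMAD co-repressor at 21.96 ± 4.30 TPM with a ratio of 1.13, Smurf2, a ubiquitin ligase for receptors and SMADs at 14.98 ± 3.63 TPM with 1.16, and Pmepa1, a TGF-beta-induced inhibitor at 11.8 ± 2.86 TPM with 1.18.

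Secreted antagonists and binding proteins (16 genes, 10 tested) had 6 ratios above 1 and 4 below (9 and 1 with total gene reads), and a median log2 ratio of 0.02. The secreted protease Htra1 stood at 48.0 ± 4.73 TPM and the BMP-binding Twsg1 at 31.6 ± 2.62, and neither passed. Under 1 of 7 alternative settings Twsg1 did pass. Fstl1 (22.9 ± 3.51 TPM, ratio 1.20) and Nbl1 (9.24 ± 1.84 TPM, ratio 1.20) passed, both higher in animal 2, and Nbl1 lost its call without the filter on low counts (exact binomial test, adjusted p = 0.0582). Grem1 and Cer1, known BMP antagonists, had no read in either library in the first quantification, and Cer1 had 2.01 and 1.20 in the second.

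Genes of latent storage and release (15, all tested) had 12 ratios above 1 and 3 below, with 6 passing as higher in animal 2 and 1 as higher in animal 1. Decorin (Dcn), a matrix proteoglycan that binds TGF-beta, was the highest at 151 ± 25.6 TPM with a ratio of 1.08. Ltbp4, which anchors latent TGF-beta 1 in the matrix, stood at 84.7 ± 17.5 TPM with a ratio of 1.15 (exact binomial test with Benjamini-Hochberg adjustment, adjusted p = 1.45e-29). The proteoglycan Bgn at 82.9 ± 8.13 TPM and the propeptide-cleaving protease Furin at 44.1 ± 4.72 TPM did not pass. Bgn did pass under 3 of 7 alternative settings. Dcn is also 1 of the 7 fibroblast markers.

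Known target genes of the 2 branches (15, all tested) split into 8 above 0 and 7 below (11 and 4 with total gene reads), and 6 passed, all higher in animal 2. Fn1, fibronectin, had 3160 reads and 17.02 TPM in animal 1 and 7197 reads and 42.16 TPM in animal 2, a ratio of 2.16 (2.07 to 2.25, exact binomial test with Benjamini-Hochberg adjustment, adjusted p = 4.96e-305). Ccn2 (CTGF) stood at 37.2 ± 14.4 TPM with a ratio of 1.47 and Col1a1 at 30.1 ± 8.63 TPM with 1.27, and Col1a1 is also a fibroblast marker. Atoh8 and Tgfbi, named after their values were seen, also passed, at 1.65 and 1.33. Tbx20, a cardiac transcription factor and BMP target, stood at 34.35 ± 3.14 TPM with a ratio of 0.993 and did not pass. With total gene reads its ratio was 1.05 and it passed as higher in animal 2. The BMP-responsive Id1, Id2, Id3 and Id4 did not pass in the main setting. Their ratios were 1.05 for Id1 and 1.13 for Id3, but 0.886 for Id2 and 0.689 for Id4 (58 and 42 reads). Members of this list and the ligands come from the same 2 libraries, and no relation between them was tested.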

How the data were processed

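The 10 genes, the pathway lists and the marker lists were chosen with earlier results of these data known. Total RNA of 2 hearts, 1 library each, was analysed as 1 group. The expected counts (estimated reads per gene and transcript, not normalised) and the TPM values of the first quantification were deposited by the authors in RSEM's layout, per the file headers. That TPM is relative to every entry, including spike-ins. The posterior standard deviation of each count, also deposited, is called the assignment spread. The second quantification holds deposited estimated counts and TPM in kallisto's layout, per the file headers, and was summed by gene here. The labels name mm10 and the annotation is GENCODE M21. The aligner, its version and the strand setting of the counting were not given in the sources used here. Numbered entries that name no gene (26248, holding 9.5e-06% and 4.8e-06% of reads) were left out.

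Levels were summarised as mean and SD of TPM over the animals. For the comparison, expected counts were rounded and genes with at least 20 reads over both libraries kept (16133). Library sizes were scaled by TMM in edgeR 4.0.16 (R 4.3.3). With 1 library per animal no residual degrees of freedom remain for edgeR's quasi-likelihood test, so each gene had a two-sided exact binomial test (scipy 1.17.1) with Benjamini-Hochberg adjustment at 0.05, with and without a 2-fold minimum. A prior count of 0.5 entered the log2 ratios. The steps were tested on simulated data. Of the overlapping genes, Ttll5 lies opposite Tgfb3 (539 and 506 reads, no shared exonic base) and Gm43422 shares 297 exonic bases with Tgfbr3 (46.78 and 29.2 reads). The assignment spread at gene level was 0 for 9 of the 10 and 1.38 and 1.08 reads for Tgfbr3. Reads carry no molecular identifiers. The reference sequence is that of C57BL/6J, while these hybrids also carry CAST alleles. Promoter windows came from RefSeq (GRCm38.p6). Named were all 10 genes, of each pathway list the 4 with the highest mean TPM and those that passed with the 2-fold minimum, and transcripts with a share of at least 10% in either animal or quantification. Other pathway genes named were chosen after their values were seen. The values of 1 target gene are not reported here. Alternatives were DESeq2 1.42.0 size factors, total gene reads, spike-in reads, other filters on low counts and the second quantification.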

Additional observations from a re-analysis of the deposited data

How the results depend on the processing

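With the 2-fold minimum the count of passing genes among the 10 was 0 under every setting run. Without it, 2 became 6 with total gene reads as library size (5 higher in animal 2 and 1 higher in animal 1) and stayed within 1.5 times, at 3 at most, under the others. With total gene reads the other pathway genes that passed without a fold minimum went from 23 to 37, 36 of them higher in animal 2, and Tbx20 turned from a log2 ratio of -0.01 to 0.0698. With the 2-fold minimum the 2 pathway genes became 1 without the filter on low counts, 1 at a minimum of 100 reads and 1 in the second quantification, Acvr1c being lost each time. The summed level of the 10 genes, 118 TPM, was 141 in the second quantification, 283 over nuclear protein-coding genes alone (286 in animal 1 and 281 in animal 2), and between 109.66 and 126.59 with 1 animal left out. For the 8 genes with more than 1 transcript, the median share of the leading transcript was 76.5% of TPM. It was 69.4% in the second quantification, 92.1% by reads, and between 74.2% and 78.8% with 1 animal left out. The cause of these shifts was not tested. Of 272 alternative ratios of 39 named genes, 255 stayed on their side of the threshold, 13 newly passed, 3 no longer passed and 1, Tbx20, reversed. Bmpr1a, Furin, Htra1 and Inha changed sign in at least 1 setting without passing in any. Of the pathway genes named here as passing, the 39 leave out Itgb6, Lrrc32, Ltbp1, Fbn1, Thbs1, Atoh8 and Tgfbi. Of those, Itgb6 kept its call under 3 of 7 alternative settings and the others under all 7. Pathway genes named without a call and outside the 39, such as Id1, Id2, Id3, Id4 and Itgb8, are not covered by these counts. Of these settings, scaling to a median log2 ratio of 0 and the minimum transcript length were chosen after seeing the data. Leaving out an animal leaves no comparison between animals. No paired analysis was possible because there is 1 group and the comparison is between its 2 animals. Depth limits Bmp4 and Tgfb2 most, at 123 and 102 and at 244 and 282 reads.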

Other observations

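The latent TGF-beta activating integrins and carriers held contrasts that the account above leaves out, and the genes in this paragraph were singled out after their values were seen. Itgb6, the beta subunit of an epithelial integrin that releases latent TGF-beta, had 1905 and 1832 reads and 13.74 and 14.24 TPM in these hearts, above Itgb8, the beta subunit of the other main activating integrin, at 0.48 and 0.62 TPM. It was also 1 of the 2 pathway genes that passed the test as lower in animal 2 (ratio 0.912, exact binomial test with Benjamini-Hochberg adjustment, adjusted p = 0.0446). That call was lost under 4 of 7 alternative settings: with total gene reads (0.489), spike-in reads (0.129), no filter on low counts (0.0664) and the second quantification (0.0664). Lrrc32 (GARP), which holds latent TGF-beta at the cell surface, had 369 and 512 reads, 31.5% more in animal 2 by scaled reads, with adjusted p = 1.06e-03 in the same exact test. Its TPM was 2.90 and 5.96 in the first quantification but 4.80 and 4.16, lower in animal 2, in the second. By scaled reads the second quantification kept it higher in animal 2, at a ratio of 1.35. Ltbp1, Fbn1 and Thbs1 were also higher in animal 2 in that test, at 1.15, 1.19 and 1.14.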
